A study of Homo sapiens with 12 samples.

Results

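Transcript levels were compared between MDA-MB-231 cells given a mimic of the plus2 isomiR of miR-183-5p and cells given a mimic of the archetype, the microRNA with its reference ends. The comparison used the 3 arrays titled for the plus2 mimic and the 3 titled for the archetype mimic, 6 of the 12 arrays of the study. It was made over 14940 of 22411 named genes, those with a mean log2 signal above 4.54, and 12215 of the 14940 are protein-coding. MDA-MB-231 is a human breast cancer line of mesenchymal character. All cells were transfected at 50 nM for 48 h with Lipofectamine RNAiMAX. The plus2 group received a custom mimic of miR-183-5p|+2|+2|, and the archetype group the mirVana mimic of miR-183-5p. The 3 control arrays come from cells given Negative Control #1, and 3 further arrays from the minus2 mimic, whose ends are both moved by 2 nt the other way per the sample labels, while the series description gives its 5′ end the opposite sign. The labels do not say whether the 3 arrays of a group are separate cultures, and p-values here cover array-to-array spread that may be technical only. Equal amounts of RNA were labelled for each array, which leaves total RNA per cell unmeasured, and in a mixed lysate a change in all cells and a larger change in some cells cannot be told apart.

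A microRNA guides Argonaute proteins to messenger RNAs by pairing of its seed, the bases 2 to 8 from its 5′ end, mostly with sites in the 3′ untranslated region, and the paired transcript is silenced or degraded. IsomiRs are forms of one microRNA whose ends are shifted in processing, and a shift of the 5′ end moves the seed and with it the set of transcripts that can pair. miR-183-5p belongs to the cluster of miR-183, miR-96 and miR-182, known from sensory cells and raised in many carcinomas, where integrin beta-1, ezrin and PP2A catalytic subunits have been described as its targets.

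The mature sequences are shown with the seed in capitals, since its position differs between the mimics. The 3′ end and the make of the mimic, customized for plus2 and not for the archetype, differ as well, and their parts in any difference between the groups cannot be told apart. The archetype is the RefSeq entry of hsa-miR-183-5p (GRCh38.p14, chr7:129774967-129774988, minus strand), since the labels give no sequence for that mimic, and plus2 is the labels' sequence with T written as U.
Archetype: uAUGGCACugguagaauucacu
Plus2: uGGCACUGguagaauucacugu
Both are 22 nt long and share a run of 20 nt. The seeds AUGGCAC and GGCACUG overlap in 5 bases, and perfect sites for them in a transcript would read GUGCCAU and CAGUGCC. Of 2544 other mature human microRNAs in the RefSeq table, 0 had either seed.

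Between the mimics, 1940 of 14940 genes (13.0%) were higher with plus2 and 2376 (15.9%) lower, so that 28.9% passed an adjusted p of 0.05 (limma fit over all 12 arrays, with Benjamini-Hochberg adjustment). Genes that passed are termed called. Most differences were small, with a median of 0.29 log2 units among the genes called higher and -0.29 among those called lower, against a median of -0.005 over all genes tested. A difference of at least 1.5-fold was found for 393 genes (2.63%), 169 higher and 224 lower with plus2, and one of at least 2-fold for 21 higher and 24 lower. For 13704 genes (91.7%) the 95% confidence interval of the difference lay within 1.5-fold either way. The 3 plus2 arrays lay wholly above or below the 3 archetype arrays for 5940 genes (39.8%).

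**Figure D1:**
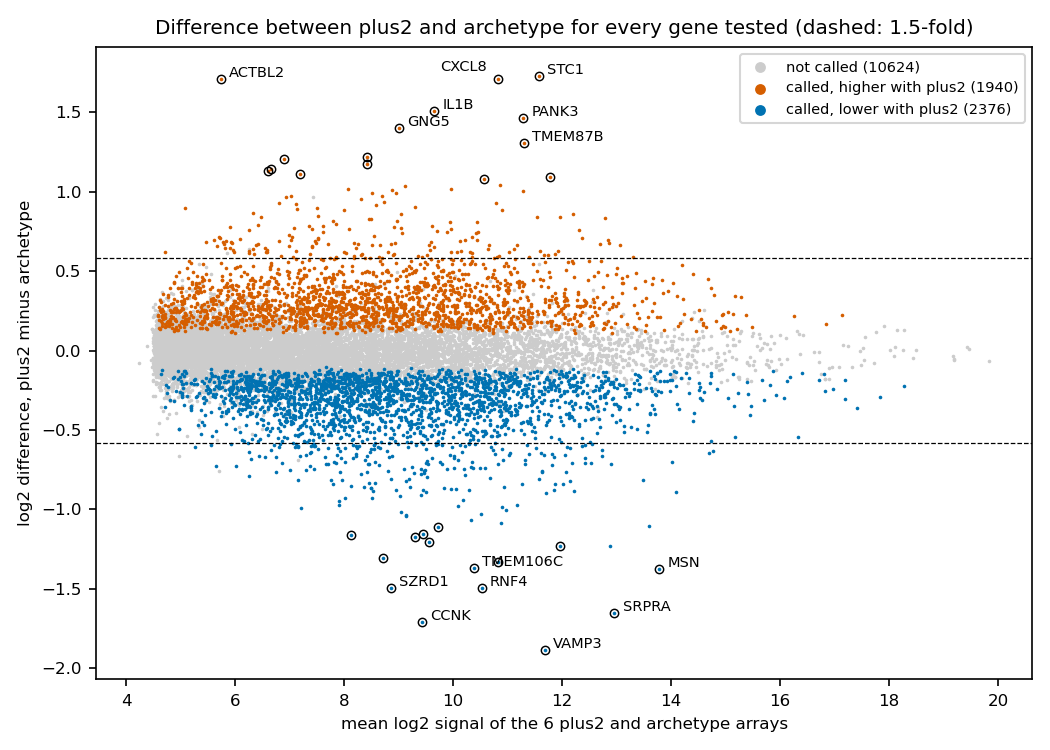
Log2 difference of plus2 minus archetype (vertical axis) against the mean log2 signal of their 6 arrays (horizontal axis) for 14940 genes, with the genes called higher in orange, those called lower in blue and dashed lines at 1.5-fold. Circles mark the 15 genes with the largest called difference in each direction, from VAMP3 at -1.89 to STC1 at 1.73.

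Replicate arrays correlated across genes with Pearson's r between 0.997 and 0.999, and no pair held identical values. Replicates spread somewhat more with plus2 than with the archetype, with median SDs of 0.0827 and 0.0607 log2 units. The line's own markers, such as VIM, CD44 and AXL, were all 12 above the signal threshold. Of 11 luminal breast cell markers measured, ESR1, PGR, FOXA1 and 3 others were below it and 5 above, among them the keratins KRT8, KRT18 and KRT19 with mean log2 signals of 13.88, 12.64 and 12.65. KRT19 was called higher with plus2 (0.16) and KRT18 lower (-0.17), and both calls were lost in the fit of the 6 arrays alone and without archetype replicate 3 or plus2 replicate 1, among others. Of 13 white blood cell markers, PTPRC and MS4A1 were below the threshold and 11 above, with mean log2 signals of 16.25 for HLA-DRA, 13.57 for CD74, 13.37 for CD68 and 13.13 for LAPTM5, and from 4.67 to 5.83 for the other 7. Of 9 fibroblast markers, DCN, LUM, PDGFRA, FAP and THY1 were below it and 4 above.

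The gene with the largest difference upwards was STC1, the gene of the secreted glycoprotein stanniocalcin-1. Its log2 signal was 12.47, 12.38 and 12.48 on the plus2 arrays and 10.76, 10.69 and 10.68 on the archetype arrays. The control mean was 12.71, so that the archetype arrays were the low ones. The difference between the mimics was 1.73 ± 0.04 (SE of the fit over all 12 arrays, n = 3 and 3) log2 units, or 3.32-fold, with an adjusted p of 8.9e-10 (limma). Against control, STC1 differed by -2.00 with the archetype and by -0.27 with plus2. These comparisons share the control arrays with each other, and each shares its mimic's arrays with the comparison between mimics.

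CXCL8, the neutrophil attractant interleukin-8, showed another arrangement, with plus2 as the high group. Its signal was 11.76, 11.54 and 11.75 with plus2 against 9.97, 9.98 and 9.98 with the archetype, and the control mean was 9.66. The difference between mimics was 1.71 ± 0.06 (adjusted p = 1.2e-08, limma). IL1B, the inflammatory cytokine interleukin-1 beta, was also higher with plus2, but its replicates scattered widely. It read 10.29, 9.75 and 11.16 with plus2 and 8.92, 8.57 and 9.20 with the archetype. The groups did not overlap, and the difference was 1.51 ± 0.30 (adjusted p = 0.0027). Leaving out single arrays moved it between 1.13 and 1.83, with an adjusted p of at most 0.014. The SE pools the spread of all 4 groups, whose SDs for IL1B were 0.714 with plus2, 0.315 with the archetype, 0.229 in control and 0.295 with minus2. It therefore understates the spread of the plus2 arrays.

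PANK3, a pantothenate kinase at the start of coenzyme A synthesis, and GNG5, a G protein gamma subunit, were lower with the archetype than in control. PANK3 had a mean signal of 12.02 ± 0.09 (SD, n = 3) with plus2, 10.55 ± 0.07 with the archetype and 11.81 in control. GNG5 read 9.66, 9.79 and 9.65 with plus2, 8.34, 8.29 and 8.27 with the archetype and 10.46 in control, so that both mimics lay below control and the archetype further. Their differences between mimics were 2.76-fold and 2.64-fold, or 1.47 log2 units for PANK3. GNG5B, at 1.15 ± 0.15, is a near-identical copy of GNG5, and the signals of both may not be separable on these arrays. ACTBL2, an actin-like gene, differed by 1.71 ± 0.15, but its archetype signals of 4.93, 4.88 and 4.82 were near the lower limit of the genes tested.

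The other genes among the 15 largest upward differences ranged from 1.31 to 1.08 log2 units. They were TMEM87B, FAM117B, PLEKHS1, the ER calcium-binding protein RCN2, the RING-finger gene LONRF2, the prolyl hydroxylase EGLN3, the translocon component TRAM1 and the PP2A catalytic subunit PPP2CA. TRAM1, which helps nascent chains into the ER membrane, read 12.26, 12.40 and 12.31 with plus2 and 11.28, 11.20 and 11.21 with the archetype, against 12.72 in control. Among all 15 genes the adjusted p was at most 0.0027. In each mimic's own comparison with control, 9 of the 15 were lower and 2 higher with the archetype, and 9 were higher and 4 lower with plus2. Over all genes tested, 10.3% were lower and 14.3% higher with the archetype, and 17.4% higher and 16.2% lower with plus2. The 15 were chosen by the difference between the mimics on these same arrays, so a tilt of these counts is built in.

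VAMP3 led the genes that were lower with plus2. It encodes cellubrevin, a vesicle SNARE of recycling endosomes. Its signal was 10.69, 10.82 and 10.72 with plus2 and 12.56, 12.63 and 12.70 with the archetype, and the control mean was 13.10. Plus2 was the low group, and the difference was -1.89 ± 0.05, or 3.70-fold (adjusted p = 1.5e-09, limma). Against control VAMP3 differed by -2.35 with plus2 and by -0.47 with the archetype.

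CCNK, the cyclin that activates the transcription elongation kinases CDK12 and CDK13, read 8.67, 8.50 and 8.52 with plus2 and 10.27, 10.29 and 10.27 with the archetype. The control mean of 10.17 lay close to the archetype arrays, and the difference between mimics was -1.71 ± 0.05. SRPRA, the alpha subunit of the signal recognition particle receptor, had control between the mimics. It read 12.14, 12.10 and 12.15 with plus2, 13.81, 13.80 and 13.75 with the archetype, and 13.04 in control, with a difference between mimics of -1.65 ± 0.04. MSN encodes moesin, which ties actin filaments to the plasma membrane. Its signal was 13.11, 13.07 and 13.12 with plus2, 14.47, 14.44 and 14.52 with the archetype and 15.31 in control. Both mimics lay below control, plus2 further, and the difference was -1.38 ± 0.04.

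SZRD1 and the SUMO-targeted ubiquitin ligase RNF4 each differed by -1.50 log2 units, with SEs of 0.04 and 0.06. RNF4 read 9.85, 9.81 and 9.66 with plus2 and 11.36, 11.24 and 11.21 with the archetype, with a control mean of 11.23. MAVS, the mitochondrial adaptor of RIG-I signalling, read 8.02, 8.05 and 8.09 with plus2 and 9.34, 9.35 and 9.39 with the archetype, with 9.51 in control. For both genes the plus2 arrays were the low ones. TMEM106C, the ER lectin gene MLEC, the gelsolin family member FLII, the sulfate-activating enzyme PAPSS2, the receptor kinase GRK2 and SERINC2 ranged from -1.37 to -1.16.

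Not all of these genes were below control with plus2. COL8A1, a short-chain collagen, read 8.54, 8.77 and 8.86 with plus2, 9.98, 9.76 and 9.95 with the archetype and 8.52 in control, so that the archetype arrays were the high ones. C2CD3, a centriole gene, was likewise highest with the archetype, at 10.32, 10.26 and 10.26, against 9.23, 9.27 and 9.01 with plus2 and 8.62 in control. Among the 15 genes of largest downward difference the adjusted p was at most 6.3e-05. In each mimic's own comparison with control, 13 of the 15 were lower and 1 higher with plus2, and 3 were lower and 6 higher with the archetype. Over all genes tested, 16.2% were lower and 17.4% higher with plus2, and 10.3% lower and 14.3% higher with the archetype. These 15 too were chosen by the difference between the mimics, so a tilt of the counts is built in.

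**Figure D2:**
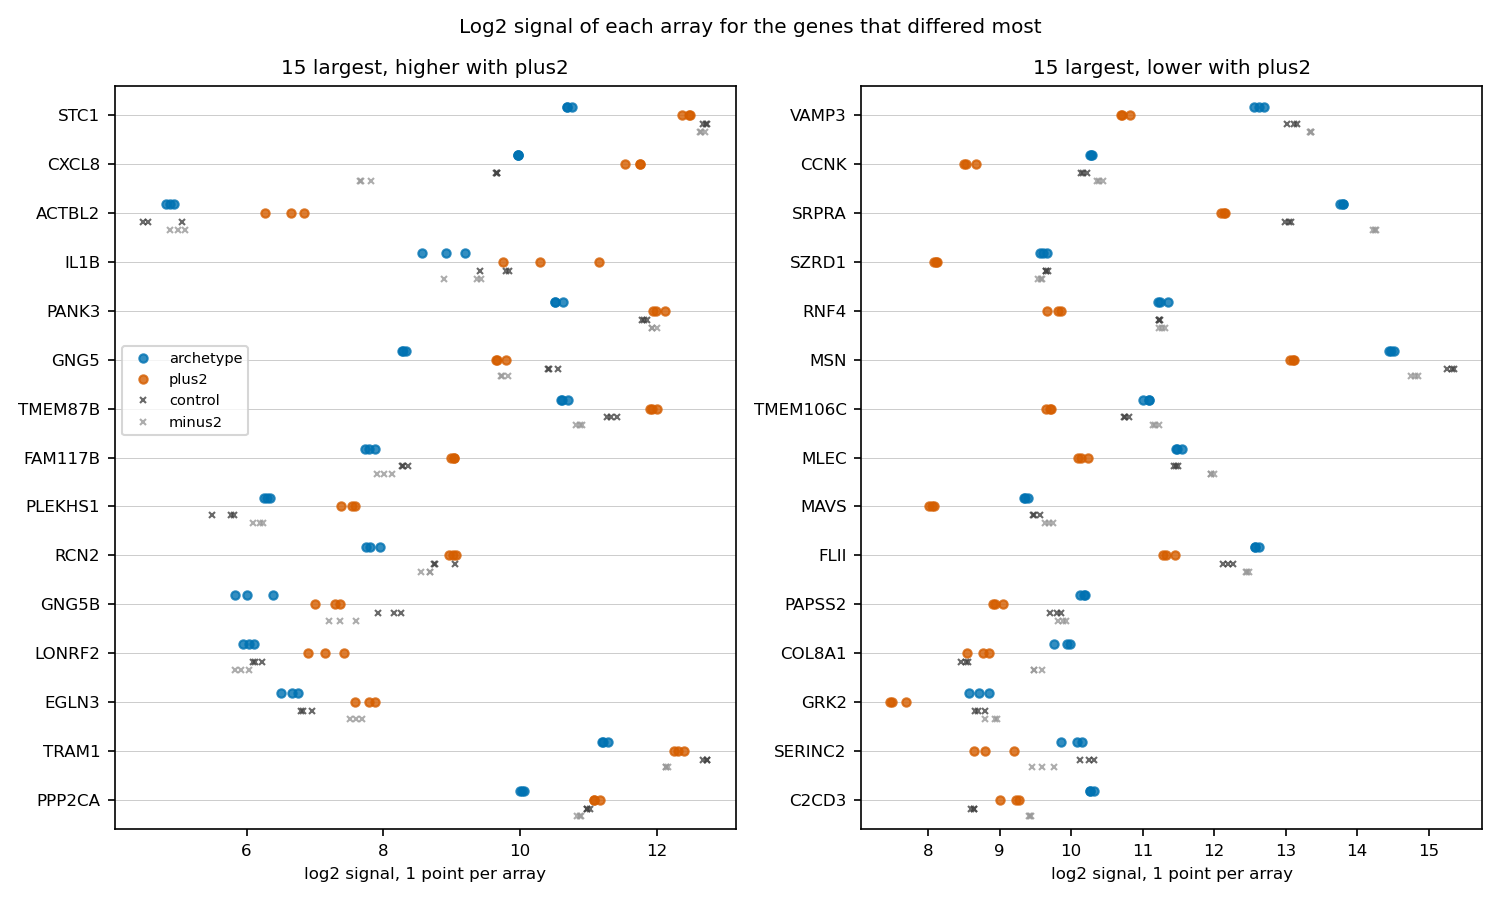
Log2 signal (horizontal axis) of every array for the 15 genes of largest called difference in each direction, with archetype in blue, plus2 in orange and control and minus2 as crosses. The plus2 points of STC1 lie near control and its archetype points apart from it, whereas for CCNK, SZRD1 and RNF4 the archetype points lie near control and the plus2 points apart.

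The same reading was made for all genes that differed by at least 1.5-fold, whose selection already used both mimics' arrays. Of the 224 genes lower with plus2, 197 were called lower than control with plus2 and 8 higher, against 40 lower and 63 higher with the archetype. Their median difference from control was -0.70 log2 units with plus2 and 0.05 with the archetype. Of the 169 genes higher with plus2, 120 were called higher than control with plus2 and 15 lower, whereas 23 were higher and 82 lower with the archetype, with medians of 0.50 and -0.24. Over all genes tested, 17.4% were higher and 16.2% lower than control with plus2, and 14.3% and 10.3% with the archetype.

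Some genes moved far from control with both mimics and differed little between them. By at least 1 log2 unit and in one direction with both, 41 genes changed. Of these, 21 were still called between the mimics, a larger share than the 28.9% of all genes tested. The 41 were selected for large changes on the same mimic arrays, so that larger share is not a result about them. For 30 protein-coding genes among the 41, the 95% confidence interval of the difference lay within 1.5-fold, and the examples were chosen from those. CLDN1, a tight junction claudin, read 8.23, 7.77 and 8.03 with plus2 and 8.02, 8.03 and 8.04 with the archetype, against 5.96 in control. The difference between mimics was -0.02, with a 95% confidence interval from -0.22 to 0.18. ANKRD1, a YAP-responsive ankyrin repeat gene, rose to 14.20, 14.46 and 14.66 with plus2 and to 14.41, 14.52 and 14.30 with the archetype from 12.64 in control, with an interval of the difference from -0.19 to 0.25. EMP1, a membrane protein of epithelial cells, fell by 1.59 with each, with an interval from -0.19 to 0.18.

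EI24, an ER gene linked to autophagy, changed by -2.04 with plus2 and -2.16 with the archetype, and the interval of the difference reached from -0.01 to 0.25. Without plus2 replicate 3 its difference was called, at 0.19 (adjusted p = 0.0067). For the clock repressor CRY1, at 1.65 and 1.52 from control, the interval was -0.04 to 0.29, and without plus2 replicate 2 the difference of 0.21 was called (adjusted p = 0.043). DKK1, a secreted Wnt antagonist, was called lower with plus2 by 0.37 ± 0.08, although both mimics raised it by more than 2 log2 units, to 12.51, 12.71 and 12.51 with plus2 and 13.05, 12.98 and 12.81 with the archetype from 10.38 in control. GINM1, HBEGF and LOX were called with differences of -0.31, -0.32 and 0.33, the call of GINM1 being lost without archetype replicate 1 (adjusted p = 0.053) or plus2 replicate 1 (0.069).

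Genes described in earlier work as targets of miR-183-5p were mostly higher with plus2. Of 20 tested, 12 were higher (60% against 13.0% of all genes) and 1 lower (5% against 15.9%), with a median difference of 0.34. The list was chosen with earlier results of these data known, so its shares are a description and not an independent test. PDCD4 was not analysed here. PPP2CA, the main catalytic subunit of protein phosphatase 2A, read 11.17, 11.09 and 11.08 with plus2 and 10.01, 10.02 and 10.06 with the archetype, 0.11 above and 0.97 below the control mean. LRP6, a Wnt co-receptor, read 10.49, 10.50 and 10.42 with plus2 and 9.48, 9.40 and 9.48 with the archetype, against 10.20. The groups were apart in both genes, and the differences were 1.08 ± 0.04 and 1.02 ± 0.04 (adjusted p = 1.2e-08 and 2.2e-08, limma). The plus2 arrays lay at or above control and the archetype arrays below it.

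KIF2A, a microtubule-depolymerising kinesin, read 10.61, 10.57 and 10.53 with plus2 and 9.91, 9.80 and 9.90 with the archetype, a difference of 0.70 ± 0.05. BNIP3L, a mitophagy receptor, differed by 0.68 ± 0.04, the mitochondrial isocitrate dehydrogenase IDH2 by 0.67 ± 0.06, the calcium sensor NCS1 by 0.61 ± 0.09 and the second PP2A catalytic subunit PPP2CB by 0.60 ± 0.04. PPP2CB had a mean of 9.20 both with plus2 and in control, and of 8.60 with the archetype. SMAD4, the shared partner of receptor-regulated SMADs, was higher by 0.49 ± 0.06, the kinase TAOK1 by 0.31 ± 0.06 and SOCS6 by 0.29 ± 0.05.

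ITGB1, the integrin beta-1 subunit, was low with both mimics. It read 14.09, 14.14 and 14.16 with plus2 and 13.72, 13.78 and 13.76 with the archetype, against 15.70 in control, and the difference was 0.38 ± 0.04 (adjusted p = 2.8e-05). EGR1, an immediate early transcription factor, was above its control mean of 6.08 with both, at 6.90 with plus2 and 6.37 with the archetype. EZR, which encodes ezrin, was the member called lower with plus2, at -0.20 ± 0.06 (adjusted p = 0.025), with 13.79, 13.87 and 13.63 against an archetype mean of 13.96 ± 0.06 (SD). That call was lost in the fit of the 6 arrays alone (adjusted p = 0.099), with array weights (0.055), after quantile normalization (0.10) and without archetype replicate 1 (0.084) or 2 (0.078) or plus2 replicate 3 (0.068).

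The 7 members that were not called lay between -0.16 for IRS1 and 0.13 for AKAP12 and FOXO1. RB1 and BTRC differed by 0.03 and 0.04 and DKK3 by 0.00. MTA1, a chromatin remodelling subunit, differed by -0.12 and was called without plus2 replicate 3 (-0.15, adjusted p = 0.033) and under a stricter filter on dim genes (adjusted p = 0.045).

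**Figure D3:**
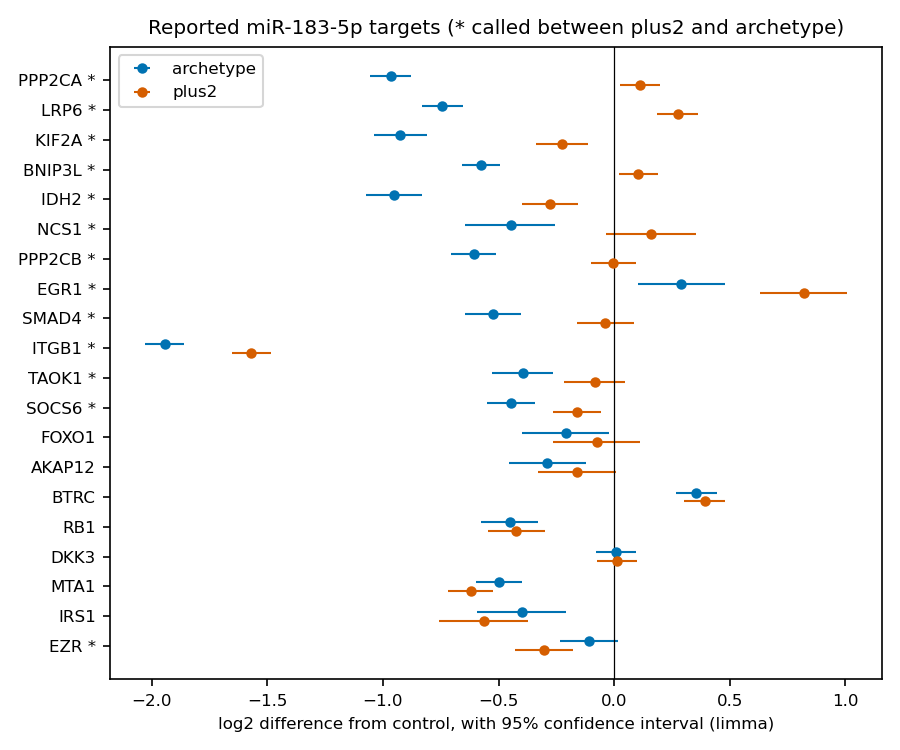
Log2 difference from control (horizontal axis) with its 95% confidence interval for the archetype (blue) and plus2 (orange) over 20 reported miR-183-5p targets, ordered by the difference between the mimics, with an asterisk where that difference was called. PPP2CA, LRP6 and BNIP3L lie below 0 with the archetype and above it with plus2, and ITGB1 lies below -1.5 with both.

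The remaining genes were read in lists by function, and the plot of shares by list gives all of them beside the background of 13.0% higher and 15.9% lower. Counts printed below without a share are to be read against that background.

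**Figure D4:**
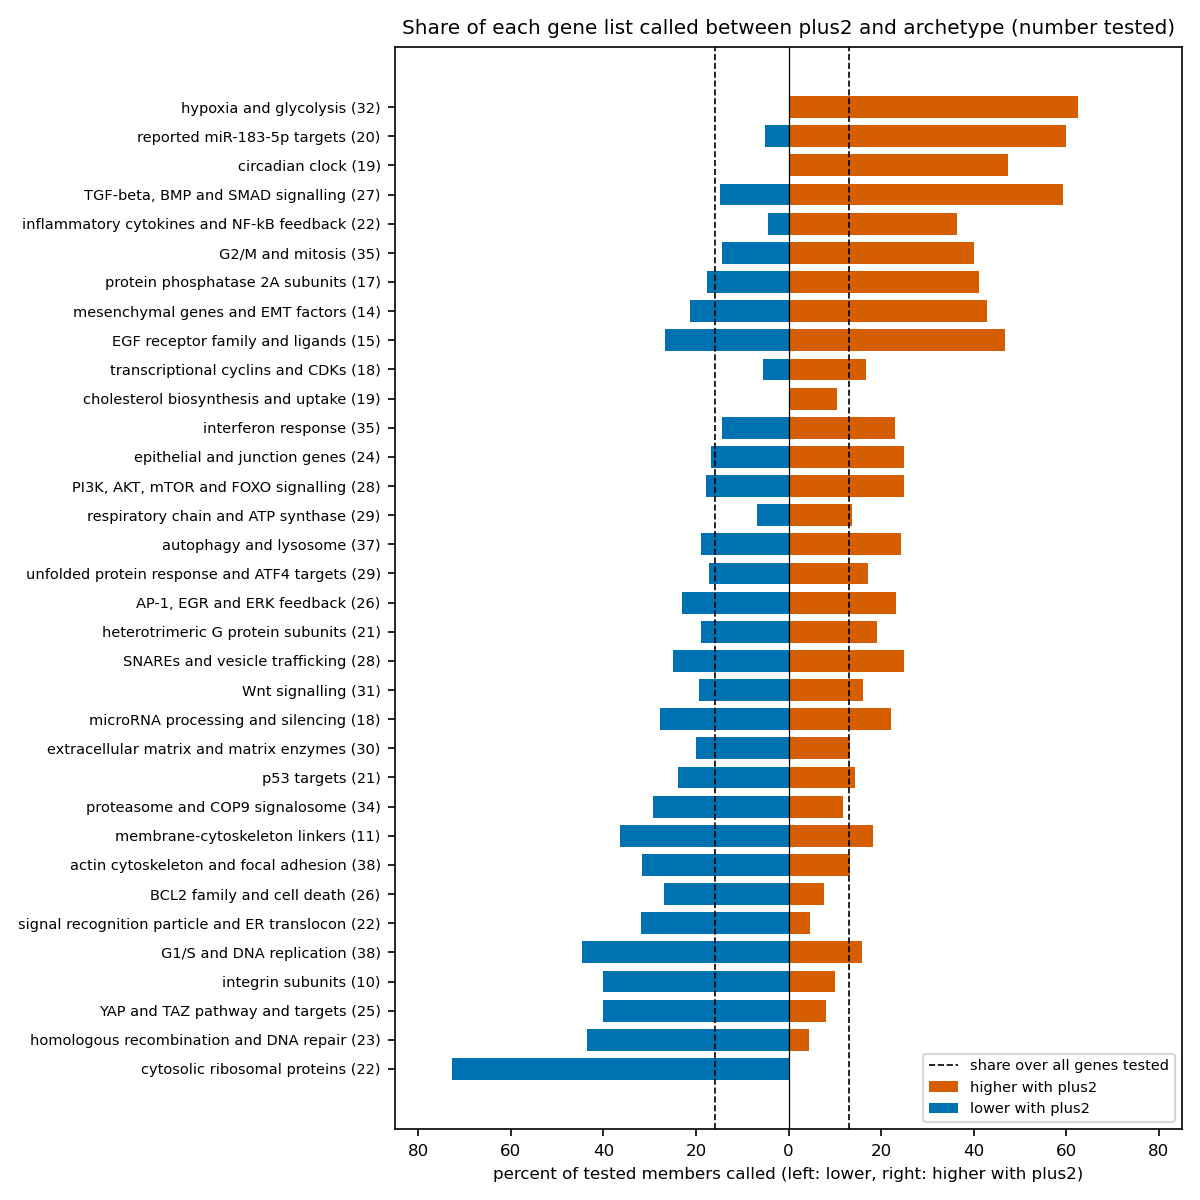
Percent of the tested members of each gene list called higher (orange, right) or lower (blue, left) with plus2 than with the archetype, with dashed lines at 13.0% and 15.9%, the shares over all 14940 genes. Hypoxia and glycolysis genes reach 62.5% higher and 0% lower, and cytosolic ribosomal proteins 72.7% lower and 0% higher.

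Genes of hypoxia and glycolysis were higher with plus2 in 20 of 32 tested (62.5%) and lower in 0, with a median difference of 0.18, and 30 of 32 differences were above 0. EGLN3, a prolyl hydroxylase that marks hypoxia-inducible factors for destruction and is itself induced by them, read 7.87, 7.79 and 7.59 with plus2 and 6.66, 6.75 and 6.51 with the archetype, against 6.86 in control. The groups were apart, with plus2 high, and the difference was 1.11 ± 0.08 (adjusted p = 3.2e-06). The glycolytic regulator PFKFB4 and the aldolase ALDOC each differed by 0.62 ± 0.07, the carbonic anhydrase CA12 by 0.53 ± 0.11, hexokinase HK2 by 0.50 ± 0.07 and NDRG1 by 0.47 ± 0.05. Differences of VEGFA, PDK1 and LDHA were called as well but were smaller, at 0.27, 0.20 and 0.14.

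Against control these genes took different places. PFKFB4 differed from control by -0.28 with plus2 and -0.90 with the archetype, and VEGFA had means of 9.88 with plus2, 9.61 with the archetype and 10.38 in control. NDRG1 and BNIP3 lay within 0.05 of control with plus2. HIF1A itself differed between the mimics by 0.08, SLC2A1, the glucose transporter GLUT1, by 0.07, and ADM by -0.07, none of them called.

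Promoters of this list were searched because its members moved together. The core of the hypoxia response element, ACGTG on either strand, was found in the 250 bases before the start of 12 of 29 members with a RefSeq promoter (41.4%), against 18.7% of 27305 promoters in all and 22.7% of those of tested genes. It was in 9 of 18 called members and in 3 of 11 others. The promoter of ALDOC (GRCh38.p14, chr17:28576896-28577145, minus strand) held 3 matches, 2 of them overlapping on opposite strands, in capitals.
ALDOC: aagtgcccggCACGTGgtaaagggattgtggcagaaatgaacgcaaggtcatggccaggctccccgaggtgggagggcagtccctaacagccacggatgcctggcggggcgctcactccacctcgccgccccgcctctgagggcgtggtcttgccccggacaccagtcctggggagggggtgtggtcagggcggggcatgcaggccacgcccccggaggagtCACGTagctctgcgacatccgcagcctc
A match of letters is not a shown binding site, and the search was chosen after the values of the list were seen. Members of the list were picked by known function, so its share against other promoters does not bear on the mimics.

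TGF-beta, BMP and SMAD genes were higher with plus2 in 16 of 27 (59.3%) and lower in 4 (14.8%), with a median of 0.18. Among ligands, TGFB2 read 13.16, 13.29 and 13.25 with plus2, 12.80, 12.80 and 12.66 with the archetype and 11.02 in control, so that both mimics were far above control and plus2 further, by 0.48 ± 0.05 (adjusted p = 6.0e-05). BMP4 was higher by 0.58 ± 0.08. Of the receptors, TGFBR2 was higher by 0.45 ± 0.04 and the co-receptor TGFBR3 by 0.30 ± 0.06, whereas TGFBR1 was lower by 0.29 ± 0.05.

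Among the signal transducers SMAD4 and SMAD2 were higher and SMAD5 was lower, by 0.12. The inhibitory SMAD6 was higher by 0.56 ± 0.11 and SMAD7 by 0.24 ± 0.07. The archetype mean of SMAD6, 4.87, was near the lower limit of the genes tested. The BMP target genes ID1, ID2 and ID3 were all higher with plus2, by 0.59 ± 0.10, 0.18 ± 0.05 and 0.45 ± 0.09. ID1 read 11.63, 11.48 and 11.93 with plus2 and 11.06, 11.14 and 11.08 with the archetype, below the control mean of 12.55 in both groups. TGFBI, a matrix protein induced by TGF-beta, read 12.03, 11.95 and 12.15 against 11.48, 11.41 and 11.43, a difference of 0.60 ± 0.06 (adjusted p = 1.7e-05). The ubiquitin ligase SMURF2, which removes receptors, was lower by 0.28 ± 0.05.

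Inflammatory cytokines and NF-kB feedback genes were higher in 8 of 22 (36.4%) and lower in 1 (4.55%), with a median of 0.22. After CXCL8 and IL1B came the monocyte attractant CCL2, at 5.67, 5.28 and 5.66 with plus2 and 4.66, 4.39 and 4.86 with the archetype. The difference was 0.90 ± 0.15 (adjusted p = 0.001), from archetype signals near the lower limit. CCL20 was higher by 0.43 ± 0.08, and the feedback genes TNIP1, TNFAIP2 and NFKBIA by 0.35, 0.35 and 0.27. NFKBIE, an inhibitor of NF-kB, was lower by 0.47 ± 0.07, and the lower count was 2 without archetype replicate 3, with an intensity trend and robust prior and with a stricter filter. IL6, IL1A and TNFAIP3 were not called, at 0.15, 0.28 and 0.25. PTPRC, which defines white blood cells, was below the signal threshold, while 3 of 11 tested markers on that list were higher and 1 lower. Those were LAPTM5 at 0.84, CSF1R at 0.47, HLA-DRA at 0.22 and CD68 at -0.29, and their part in the result was not tested. CSF1R, with an archetype mean of 5.06, was also near the lower limit. The call of CD68 was lost in the fit of the 6 arrays alone (adjusted p = 0.059, limma) and without archetype replicate 3 (0.054) or plus2 replicate 1 (0.058) or 2 (0.066), which left 0 markers lower.

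Circadian clock genes were higher in 9 of 19 (47.4%) and lower in 0, with a median of 0.12 and 19 of 19 differences above 0, also after centring and after quantile normalization. CLOCK, the activating partner of BMAL1, read 12.33, 12.30 and 12.11 with plus2 and 11.71, 11.57 and 11.59 with the archetype, a difference of 0.63 ± 0.06 (adjusted p = 1.8e-05). The repressor BHLHE41 was higher by 0.65 ± 0.05, the nuclear receptor NR1D1 by 0.47 ± 0.11, CIART by 0.41 ± 0.06 and PER1 by 0.31 ± 0.05. BMAL1, CRY2 and PER2 differed by 0.10, 0.11 and 0.12 and were not called.

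Genes of G1/S and DNA replication went the other way, with 17 of 38 lower with plus2 (44.7%) and 6 higher (15.8%), and a median of -0.17. CDK6, a kinase that phosphorylates RB1 in G1, read 9.18, 9.11 and 9.02 with plus2 and 9.86, 9.83 and 9.87 with the archetype, against 10.41 in control. The difference was -0.75 ± 0.05 (adjusted p = 1.4e-06). CDK2 and CDK4 were lower by 0.29 ± 0.04 and 0.20 ± 0.05. Of the replicative helicase, MCM6, MCM2, MCM4, MCM5 and MCM7 were lower by 0.66 ± 0.09, 0.46 ± 0.07, 0.32 ± 0.07, 0.30 ± 0.06 and 0.21 ± 0.06, whereas MCM3 at -0.28 was not called. MCM6 read 9.75, 9.72 and 9.40 with plus2 and 10.25, 10.34 and 10.25 with the archetype, with control between them at 10.03.

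Among the other replication genes lower with plus2 were the maintenance methylation factor UHRF1 (-0.58 ± 0.14), the polymerase alpha subunit POLA1 (-0.54 ± 0.08) and the licensing factor CDC6 (-0.45 ± 0.07). With plus2, UHRF1 read 9.62, 9.56 and 8.98 and POLA1 10.44, 10.32 and 10.07. For both, as for MCM6, plus2 replicate 3 was the lowest array and made the difference larger. The 6 members that were higher were CCNE1, CCND1, PCLAF, RBL2, CDKN1B and CCND3, from 0.47 to 0.24. CCND1, cyclin D1, read 13.37, 13.48 and 13.15 with plus2 and 12.88, 12.91 and 12.83 with the archetype, against 13.37 in control, so that the archetype arrays were low. CDKN1B and RBL2 encode inhibitors of the G1/S transition. E2F1, PCNA, RRM2 and TYMS, at -0.10, -0.12, -0.08 and -0.15, were not called.

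An E2F-type motif (TTTCCCGC, TTTGGCGC, TTTCGCGC or TTTGCCGC on either strand, which can overlap each other) stood in the 250 bases before the start of 14 of 33 members with a RefSeq promoter (42.4%), against 2.79% of all promoters and 4.16% of those of tested genes. It was in 5 of 19 called members and in 9 of 14 others. The list was put together by known function in the cell cycle, so its share against all promoters does not bear on the mimics. The called members include both directions, and a match of letters is not a shown binding site. MCM6 (GRCh38.p14, chr2:135876444-135876693, minus strand) held 4 matches in 2 stretches.
MCM6: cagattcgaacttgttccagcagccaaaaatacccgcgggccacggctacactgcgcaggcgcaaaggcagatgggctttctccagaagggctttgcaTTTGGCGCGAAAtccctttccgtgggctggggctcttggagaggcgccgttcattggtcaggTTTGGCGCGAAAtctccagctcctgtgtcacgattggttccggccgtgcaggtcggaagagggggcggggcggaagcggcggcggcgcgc

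Genes of G2/M and mitosis were higher with plus2 in 14 of 35 (40.0%) and lower in 5 (14.3%), with a median of 0.11. The count of higher members fell to 9 without archetype replicate 2 and in the fit of the 6 arrays alone. PLK1, a kinase of mitotic entry and spindle assembly, read 11.86, 11.88 and 11.64 with plus2, 11.25, 11.27 and 11.37 with the archetype and 12.53 in control. Both mimics lay below control, the archetype further, and the difference was 0.50 ± 0.07 (adjusted p = 0.00031). The cytokinesis genes ECT2 and KIF23 were higher by 0.48 ± 0.05 and 0.43 ± 0.08, and CDC25C and DLGAP5 by 0.43 ± 0.05 each.

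AURKB, the kinase of the chromosomal passenger complex, was lower with plus2. It read 9.47, 9.35 and 9.34 against 10.01, 9.92 and 10.01 with the archetype and 9.89 in control, a difference of -0.60 ± 0.05. CDC25A, CDC25B, FOXM1 and CDC20 were lower by 0.55, 0.50, 0.37 and 0.26. CDC25A read 8.44, 8.43 and 7.92 with plus2, lowest on replicate 3. CCNB1, TPX2 and MKI67, at -0.00, 0.00 and -0.12, were not called.

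Genes of homologous recombination and DNA repair were lower with plus2 in 10 of 23 (43.5%) and higher in 1 (4.35%), with a median of -0.11. XRCC2, a homologous recombination factor, read 10.01, 9.98 and 9.50 with plus2 and 10.51, 10.71 and 10.51 with the archetype, a difference of -0.75 ± 0.12. BRCA1 was lower by 0.57 ± 0.07, its partner PALB2 by 0.50 ± 0.06 and the helicase BRIP1 by 0.35 ± 0.07. NBN, of the MRE11 complex, was higher by 0.30 ± 0.06, whereas MRE11 was lower by 0.23 ± 0.05 and RAD50 was not called, at -0.04.

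**Figure D5:**
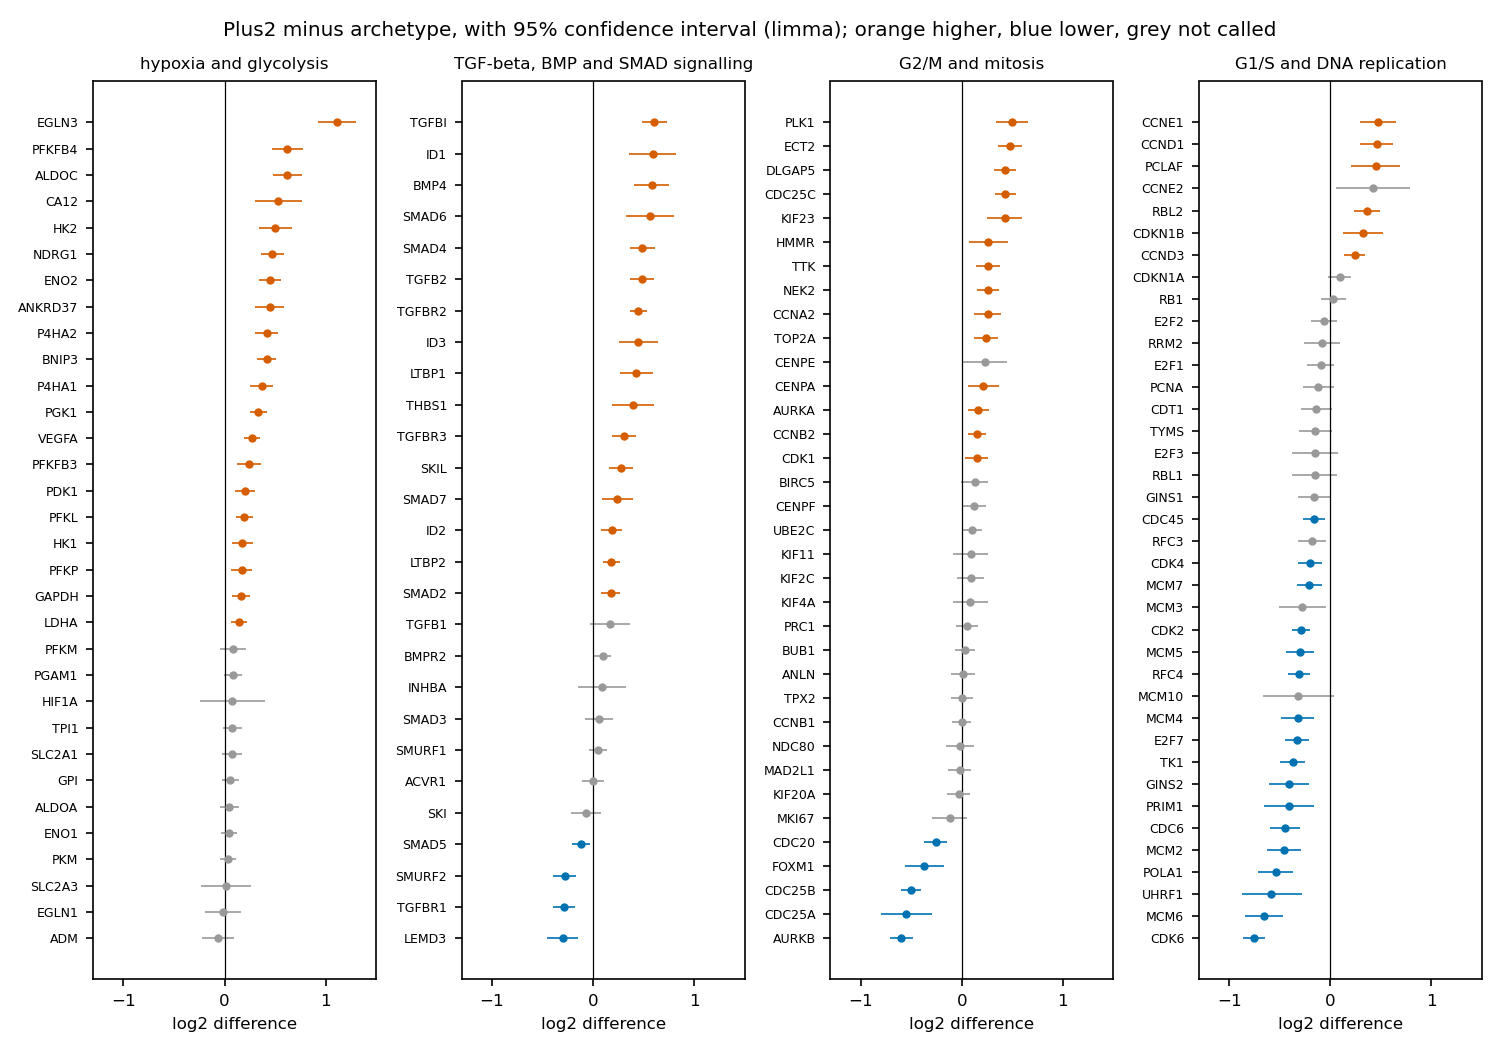
Log2 difference of plus2 minus archetype (horizontal axis) with its 95% confidence interval for the tested members of 4 lists, orange where called higher, blue where called lower and grey where not called. Hypoxia and glycolysis holds 20 orange and 0 blue points of 32, TGF-beta signalling 16 and 4 of 27, G2/M 14 and 5 of 35, and G1/S 6 and 17 of 38.

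Actin cytoskeleton and focal adhesion genes were lower with plus2 in 12 of 38 (31.6%) and higher in 5 (13.2%), with a median of -0.07. TLN1, talin, which links integrins to actin, read 10.88, 10.78 and 10.89 with plus2 and 11.75, 11.63 and 11.70 with the archetype, against 11.77 in control. The plus2 arrays were the low ones, and the difference was -0.84 ± 0.06 (adjusted p = 1.8e-06). WASF2, an activator of the Arp2/3 complex, was lower by 0.69 ± 0.06, MICAL2 by 0.55 ± 0.04, CORO1C by 0.47 ± 0.04 and paxillin, PXN, by 0.34 ± 0.06. FERMT2, kindlin-2, was higher by 0.54 ± 0.05. Actin itself, ACTB, and RHOA, RAC1 and CDC42 were not called, at -0.07, -0.09, 0.01 and 0.01.

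Of the integrin subunits, 4 of 10 were lower (40.0%) and 1 higher (10.0%), the latter being ITGB1. The higher count was 2 without archetype replicate 3 or plus2 replicate 2, after centring, after quantile normalization and with a replicate block. ITGA5, the alpha subunit of a fibronectin receptor that pairs with ITGB1, read 11.67, 11.63 and 11.88 with plus2 and 12.40, 12.36 and 12.39 with the archetype, a difference of -0.66 ± 0.08. ITGA3, ITGB5 and ITGA6 were lower by 0.47, 0.30 and 0.14. Among linkers of membrane and cytoskeleton, 4 of 11 were lower and 2 higher, but the lower count was 1 in the fit of the 6 arrays alone and without archetype replicate 1, and 2 after quantile normalization. MSN differed by -1.38, and its paralogs EZR and RDX by -0.20 and 0.04. The spectrins SPTBN1 and SPTAN1 were higher by 0.45 ± 0.04 and 0.30 ± 0.06.

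YAP and TAZ pathway genes were lower in 10 of 25 (40.0%) and higher in 2 (8.0%; 4 members after quantile normalization), with a median of -0.04. YAP1, the transcriptional coactivator, read 10.58, 10.45 and 10.41 with plus2 and 11.08, 11.10 and 11.01 with the archetype, against 11.02 in control. The difference was -0.58 ± 0.05 (adjusted p = 7.3e-06). Of its DNA-binding partners, TEAD4 was lower by 0.49 ± 0.06 and TEAD1 by 0.35 ± 0.05, and its paralog WWTR1 was not called, at -0.10. The inhibiting kinase LATS2 was higher by 0.40 ± 0.06. Target genes did not share a direction, with AXL and CCN1 lower by 0.41 and 0.20 and ANKRD1 and CCN2 not called, at 0.03 and 0.21.

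Wnt genes were lower in 6 of 31 (19.4%) and higher in 5 (16.1%), near the shares over all genes. The higher count was 3 without archetype replicate 2 or plus2 replicate 1, in the fit of the 6 arrays alone and with no filter on dim genes. The co-receptor LRP6 was higher by 1.02, and the cytoplasmic adaptors DVL2 and DVL3 were lower by 0.82 ± 0.05 and 0.46 ± 0.05. DVL2 read 6.67, 6.78 and 6.76 with plus2 and 7.66, 7.51 and 7.49 with the archetype. The receptor FZD6 was lower by 0.57 ± 0.07, and beta-catenin, CTNNB1, was higher by 0.17 ± 0.04.

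Among AP-1, EGR and ERK feedback genes, 6 of 26 were higher and 6 lower. FOSL1, the AP-1 subunit FRA-1, read 8.70, 8.49 and 8.63 with plus2 and 9.77, 9.55 and 9.63 with the archetype, against 10.03 in control, a difference of -1.04 ± 0.07 (adjusted p = 1.1e-06). ETV4 was lower by 0.64 ± 0.07 and the kinase MAP2K1 by 0.36 ± 0.04. The feedback inhibitors SPRY1 and DUSP4 were higher by 0.47 and 0.23, and IER3 was higher by 0.39. FOS, JUN and DUSP6 were not called, at 0.10, 0.13 and 0.04. Among EGF receptor genes 7 of 15 were higher (46.7%) and 4 lower (26.7%). The ligands EGF, BTC, TGFA and EREG were higher, by 0.55, 0.55, 0.40 and 0.17, and HBEGF was lower. EGF had means of 5.47 with plus2, 4.92 with the archetype and 5.04 in control, near the lower limit of the genes tested. The receptor EGFR was lower by 0.29 ± 0.05, with the adaptors SHC1 and GRB2 lower by 0.56 ± 0.04 and 0.47 ± 0.06.

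Of the line's 12 markers, 8 were lower with plus2 (66.7%) and 0 higher, with a median of -0.26. MSN and FOSL1 differed most, followed by the caveolin CAV1 at -0.58 ± 0.06, and VIM, SPARC, CD44 and CAV2 were not called, between -0.10 and 0.02. Of mesenchymal genes 6 of 14 were higher (42.9%) and 3 lower (21.4%). Fibronectin, FN1, read 10.64, 10.53 and 10.73 with plus2 and 10.02, 10.06 and 10.07 with the archetype, a difference of 0.59 ± 0.06. SNAI2, a transcriptional repressor of epithelial genes, was lower by 0.45 ± 0.08. CDH1, E-cadherin, was higher at 6.10, 5.92 and 6.15 against 5.39, 5.25 and 5.38, a difference of 0.71 ± 0.08, and its control mean of 4.92 was near the lower limit. Of 24 epithelial genes 6 were higher and 4 lower, and the higher count was 3 without archetype replicate 1 or 2 or plus2 replicate 3, in the fit of the 6 arrays alone and with array weights.

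The lists that hold VAMP3, SRPRA and CCNK were read for their other members. VAMP3, CCNK and SRPRA were picked as the largest downward differences, so smaller ones in the rest follow from that choice. Of SNARE and vesicle trafficking genes 7 of 28 were lower and 7 higher, the higher count being 4 without archetype replicate 3 and the lower one 4 in the fit of the 6 arrays alone. After VAMP3, SNAP29 was lower by 0.64 ± 0.06 and VAMP8 by 0.39 ± 0.07. VAMP2, a close relative of VAMP3, was higher by 0.36 ± 0.06, at 7.20, 7.14 and 7.33 with plus2 against 6.90, 6.91 and 6.77 with the archetype.

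Of signal recognition particle and translocon genes, 7 of 22 were lower (31.8%) and 1 higher (4.55%). After SRPRA the next lower were SSR1, SEC11A and TRAM2 at -0.36, -0.35 and -0.31, and SRPRB, the beta subunit of the same receptor, at -0.28 ± 0.04. TRAM1 was the member that was higher, and the higher count was 2 without plus2 replicate 1 and after quantile normalization. The particle's own subunits SRP54, SRP68 and SRP72 were not called, at 0.15, 0.04 and -0.08. Among transcriptional cyclins and their kinases 1 of 18 was lower, CCNK, and 3 higher. The lower count was 2 without plus2 replicate 2 or 3, and the higher one 5 after quantile normalization. CDK12 and CDK13, the kinases bound by cyclin K, were not called, at 0.04 and -0.02. CDK19, a Mediator kinase, read 9.00, 8.88 and 8.74 with plus2 and 8.03, 8.02 and 8.08 with the archetype, a difference of 0.83 ± 0.06 (adjusted p = 1.8e-06).

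Protein phosphatase 2A genes were higher in 7 of 17 (41.2%) and lower in 3 (17.6%). Besides the catalytic subunits, the regulatory B56 subunits PPP2R5B, PPP2R5C and PPP2R5D were higher by 0.49, 0.40 and 0.38. The scaffold subunits PPP2R1B and PPP2R1A were lower by 0.52 ± 0.05 and 0.26 ± 0.05, and the methylesterase PPME1 by 0.72 ± 0.08. PPME1 was above control with both mimics, at 11.47, 11.59 and 11.29 with plus2 and 12.30, 12.17 and 12.05 with the archetype from 10.79. Of heterotrimeric G protein genes 4 of 21 were higher and 4 lower, with the alpha subunits GNA11 and GNA12 at -0.94 ± 0.09 and -0.84 ± 0.06 and the subunits GNG11 and GNB1 at 0.61 ± 0.09 and 0.43 ± 0.04, beside GNG5.

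Cytosolic ribosomal protein genes were lower with plus2 in 16 of 22 (72.7%) and higher in 0, and 22 of 22 differences were below 0 (21 after quantile normalization), but they were small, with a median of -0.16. This count depended on single arrays, being 8 without archetype replicate 1 or 2 and 9 without archetype replicate 3 or plus2 replicate 1, and it was 5 in the fit of the 6 arrays alone and after quantile normalization. RPL10A differed most among the called members, at 12.28, 12.41 and 12.41 with plus2 against 12.74, 12.72 and 12.70 with the archetype, a difference of -0.35 ± 0.05. Many of these genes have near-identical processed copies in the genome, and their signals may include those copies.

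Cell death genes of the BCL2 family and its neighbours were lower in 7 of 26 (26.9%) and higher in 2 (7.69%). TMBIM6, BAX inhibitor-1 of the ER membrane, read 13.00, 13.03 and 13.08 with plus2 and 14.14, 14.11 and 14.17 with the archetype, against 14.75 in control, a difference of -1.11 ± 0.04 (adjusted p = 1.2e-08). Both the inhibitors BCL2 and BCL2L1 and the effectors BAX and BAK1 were lower, by 0.33, 0.25, 0.33 and 0.34. APAF1, the core of the apoptosome, was higher by 0.41 ± 0.05, and MCL1 was not called, at -0.06. Among p53 targets 5 of 21 were lower and 3 higher, the lower count being 3 without archetype replicate 1 or 3, and CDKN1A was not called, at 0.09.

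Interferon response genes were higher in 8 of 35 (22.9%) and lower in 5 (14.3%), against 13.0% and 15.9% of all genes, with a median of -0.00 that was 0.01 after centring or quantile normalization. IFIT1, which binds foreign RNA, was higher by 0.66 ± 0.11 and the ubiquitin ligase HERC5 by 0.50 ± 0.08. IFI35 was lower by 0.75 ± 0.07, at 7.10, 7.05 and 7.06 with plus2 against 7.82, 7.75 and 7.88 with the archetype. RIGI, the RNA sensor that signals through MAVS, was higher by 0.43 ± 0.05. The lower count was 2 without archetype replicate 1 or 3 or plus2 replicate 2, 3 in the fit of the 6 arrays alone and 8 without plus2 replicate 3. ISG15 and IFI44L were not called, at 0.05 and -0.12.

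Among microRNA processing genes 4 of 18 were higher and 5 lower. DROSHA, which cuts primary transcripts in the nucleus, was lower at 10.53, 10.52 and 10.33 with plus2 against 10.89, 10.89 and 10.92 with the archetype, and the exporter XPO5 was lower by 0.36 ± 0.06. DICER1 was not called, at 0.08. Among PI3K, mTOR and FOXO genes 7 of 28 were higher and 5 lower, the higher count being 4 in the fit of the 6 arrays alone, with the translation repressor EIF4EBP2 at -0.82 ± 0.06 and the phosphatase PHLPP1 at -0.57 ± 0.08. Of 37 autophagy and lysosome genes 9 were higher and 7 lower, the higher count being 5 in that fit, with the lysosomal membrane gene LAPTM5 at 0.84 ± 0.08 and WIPI1 at 0.59 ± 0.12.

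Of unfolded protein response genes 5 of 29 were higher and 5 lower (17.2% each), near the shares over all genes. The higher count was 8 after quantile normalization, and the lower one 3 there and in the fit of the 6 arrays alone. VLDLR, a lipoprotein receptor induced by ATF4, led them at 0.82 ± 0.08, while HSPA5, the chaperone BiP, was lower by 0.18 and XBP1 and ATF4 were not called. Cholesterol synthesis genes were higher in 2 of 19, HMGCS1 and IDI1 at 0.43 and 0.29, and lower in 0, the higher count being 4 without plus2 replicate 2 and the lower one 1 without archetype replicate 3. Respiratory chain genes were higher in 4 of 29 (13.8%) and lower in 2 (6.9%). The higher count was 9 after quantile normalization and 2 in the fit of the 6 arrays alone. Extracellular matrix genes were lower in 6 of 30 (20%) and higher in 4 (13.3%), with COL8A1 at -1.18 and COL12A1 at 0.54 ± 0.06. Their higher count was 2 without archetype replicate 1 or 3 or plus2 replicate 1, in the fit of the 6 arrays alone and with a stricter filter on dim genes, and 7 after quantile normalization. Proteasome and COP9 genes were lower in 10 of 34 (29.4%) and higher in 4, the higher count being 2 without archetype replicate 1 or 3 and in the fit of the 6 arrays alone. Their median of -0.03 was 0.00 after quantile normalization. They included PSMC1 at -0.35 and COPS2 at -0.33 and, among those higher, COPS8 at 0.31.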

How the data were processed

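RNA of 12 samples in 4 groups of 3 was hybridised to Affymetrix arrays. The deposited values are log2 signals. The submitters' processing notes list RMA and, at version 1.4.1, Affymetrix Expression Console. The log2 scale was read from the values, which lie between 1.79 and 19.9. The platform annotation gave a single symbol for 23781 of 67528 transcript clusters, and for 528 genes with several clusters the brightest was used. Symbols were updated through a RefSeq table (GRCh38.p14) for 306 clusters. Genes in the upper part of mean signal, above 4.54, were tested in R 4.3.3 by lmFit and eBayes of limma 3.58.1 (all 12 arrays, 8 residual degrees of freedom, Benjamini-Hochberg adjustment over 14940 genes). Errors are SEs of that fit. Exact permutation of 3 against 3 arrays cannot give p below 0.1 and was not used.

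On simulated data with 200 of 14940 genes changed, 60% of differences of 0.3 log2 units were recovered, 84% of 0.5 and 100% of 1 and of 2. False calls made up 1.71% of all calls there. The simulated noise was independent between arrays, with 1 SD per gene in all groups. Far more genes were called in the real data, and plus2 replicates spread more there, so these rates need not hold for the comparison itself. The comparison and the gene lists were chosen with earlier results of these data known. Named are the 15 genes of largest called difference in each direction with groups apart, passing over noncoding and uncharacterised loci, up to 4 called members of each list with further members for contrast, every reported miR-183-5p target, and 10 genes changed at least 1 log2 unit from control by both mimics whose interval lies within 1.5-fold. Alternatives varied the arrays in the fit, array weights, variance prior, scaling, filter, cluster choice, replicate block and single arrays left out. Motif searches covered 250 bases upstream in RefSeq promoters. Genes without a named cluster were not analysed here. A signal compares arrays, not one gene with another.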

Additional observations from a re-analysis of the deposited data

How the results depend on the processing

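The counts of genes called, higher and lower stayed within 1.5 times their values under every alternative run. The total of 4316 was 3197 in the fit of the 6 arrays alone, 4139 with array weights, 4354 with an intensity trend and robust prior, 4461 after centring, 4451 after quantile normalization, 3851 with no filter and 4363 with a stricter one, and 4293 with the mean of a gene's clusters. The share higher among called genes, 44.9%, was 48.6% after centring and 50.9% after quantile normalization. Over all transcript clusters 5048 were called, and 745 in place of 393 differed at least 1.5-fold, out of 36847 rather than 14940 features. Leaving out single arrays gave 3532 to 4228 called, 1518 to 1899 higher, 1835 to 2335 lower and 381 to 419 at least 1.5-fold. With the replicate number as a block, 4564 were called, 2053 higher and 2511 lower. The numbers were not taken to pair the samples, since deviations of same-numbered plus2 and archetype arrays correlated at 0.0864, 0.12 and 0.133, although 6 of 6 arrays correlated best with their own number, a hint from the data and not the design. Of 3666 pairs of a named gene and an alternative, 3601 kept direction and call, 61 lost the call (11 genes), 4 gained it (3 genes) and 0 reversed. The 30 genes of largest difference kept both in 629 of 629 pairs. Of 1596 list counts under alternatives, 88 moved over 1.5 times, and the cause was not tested. At an unadjusted p of 0.05, 5772 genes passed. The median SE of 0.062 log2 units limits what small differences show.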

Other observations

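Transcript clusters without a gene symbol were read from the fit over all 36847 transcript clusters above a mean log2 signal of 4.54. That fit and its adjustment of p include the clusters of named genes. Of 19872 above the same signal, 665 were higher and 829 lower with plus2 than with the archetype (7.52%), 315 of them at least 1.5-fold, with differences from -2.13 to 2.22 log2 units. Over all 36847 clusters of that fit, 5048 were called, 2198 higher and 2850 lower, and 745 of them differed at least 1.5-fold. Among named genes that do not code for protein, 103 of 2725 were higher and 144 lower. Of the 12215 protein-coding genes, 1837 were higher and 2232 lower, and the shares over all 14940 genes were 13.0% and 15.9%.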
